A study of Mus musculus with 24 samples.

Results

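The miRNAs described here belong to the stems miR-297, miR-466, miR-467 and miR-669 and are here called the Sfmbt2-type repeats. Members were taken by name: every mature miRNA in the deposited table whose name is a stem followed by a letter, an arm or nothing. This gave 61 of the 1221 mature names in the table, of which 28 were 5p arms, 26 were 3p arms and 7 had no arm in the name. A filter on low counts passed 30 of the 61 (18 of the 5p arms, 11 of the 3p arms and miR-466g), and only these 30 were tested. The other 31 together held 1.73% of the members' counts, and their mean level never exceeded 1.52 CPM (the count scaled by the summed miRNA count of each library). Of these, miR-466q had 0 counts in every purified library.

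The cells were 3T9 fibroblasts, an immortalised line of mouse embryo fibroblasts, grown in DMEM with 10% serum. 4-thiouridine (4SU) is a uridine analogue that cells build into new RNA and whose sulphur can be coupled to biotin. Cells received 300 µM 4SU for 3 h and were then chased in 1 mM uridine, and labelled RNA was biotinylated and captured on streptavidin beads. The 21 purified libraries were made at 0, 2, 4, 6, 8, 10 and 12 h of chase in 3 experiments, which the series design calls independent biological replicates. The remaining 3 libraries were controls without replicates. Total RNA was sequenced from cells without label and from cells after the pulse, and RNA without label was also carried through the capture (the negative extraction).

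A miRNA is cut from a hairpin precursor whose sides give a 5p and a 3p arm. Usually the arm that is loaded into an Argonaute protein persists, while the other, the passenger, is lost sooner. The guide arm finds its targets mainly through its seed, bases 2 to 8. The mouse genes of these stems lie in tandem in an intron of Sfmbt2, an imprinted Polycomb-group gene, and this cluster is known for its part in growth of the placenta. Among the members, miR-669a is known for restraining muscle differentiation, and miR-466h-5p for promoting cell death in nutrient-starved culture.

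In the GENCODE M21 annotation of GRCm38, 81 genes had these stems in their names and 71 of them lay within Sfmbt2, on chromosome 2 from 10370510 to 10595253. These 71 genes stood between 10466663 and 10518279, a stretch of 51.6 kb. None overlapped an exon of Sfmbt2, and all 71 fell in the intron after exon 10 of the transcript Sfmbt2-201 (after exon 11 of Sfmbt2-205). By stem, the share inside Sfmbt2 was 5 of 6 genes for Mir297, 23 of 28 for Mir466, 14 of 17 for Mir467 and 29 of 30 for Mir669. Counted by matching names and not sequences, several mature names have many gene copies: miR-669a has 12, miR-467a has 10, miR-466b has 8, and miR-297a and miR-466f have 4 each. Reads of such near-identical copies cannot be assigned to a gene, and reads that match several member names may have been divided or counted more than once, so single members are uncertain. The genome build behind the deposited counts is not given in the sources used here.

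**Figure D1:**
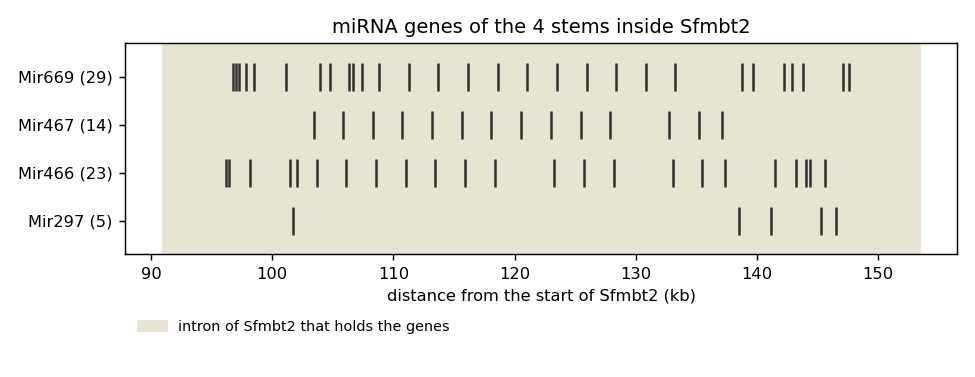
Positions of the 71 miRNA genes of the 4 stems inside Sfmbt2, 1 tick per gene, as distance in kb from the start of Sfmbt2, with the number of genes of each stem in parentheses. The shaded intron holds all 71 genes, and the Mir466, Mir467 and Mir669 genes alternate through most of it.

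RefSeq mature sequences (GRCm38.p6) were matched by name for 5 of the 61 members. All 5 have genes outside the Sfmbt2 array, and 4 are printed with the seed in capitals, to show the dinucleotide repeats that these stems are built from:
miR-466i-3p: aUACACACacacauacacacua
miR-466j: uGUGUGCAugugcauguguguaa
miR-466k: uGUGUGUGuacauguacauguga
miR-669n: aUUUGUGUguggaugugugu

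These mature sequences lie in the genome at chr13:17747552-17747573 for miR-466i-3p, at chr10:60960802-60960824 for miR-466j, at chr3:85467396-85467418 for miR-466k and at chr3:115979905-115979924 for miR-669n. All are on the plus strand. The loci may be incomplete, because entries on a further chromosome were left out of the matching. miR-466i-3p is an AC repeat with the seed UACACAC and holds only 3 uridines in 22 bases. The other 3 are UG-rich: miR-466j and miR-466k hold 9 uridines in 23 bases each, and miR-669n holds 10 in 20. Uridine is the base that 4SU replaces. No seed was shared among these 4. Among 1738 mature mouse entries in the RefSeq table, the run ACACAC occurred in 0.633% and UGUGUG in 1.61%. Every mature sequence that held the letters as written was counted. Only 5 of the 61 members were matched in that table, so these shares leave out most members. Of the 4, only miR-466i-3p was abundant enough to test. miR-466k, with 71 counts, miR-466j, with 10, and miR-669n, with 1 count over the 21 purified libraries, were not tested.

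Purified libraries held 1133048 to 7886484 miRNA counts. The total RNA libraries held 6412428 counts without label and 4525638 with it, and the negative extraction held 283922. Depth was lower at 12 h than at 0 h in each experiment: 3 counts stood for 0.388 to 0.994 CPM at 0 h and for 0.914 to 2.65 CPM at 12 h. Experiment 2 was the shallowest. In the table's header experiment 1 and the negative extraction share part of a library code, whereas experiment 2, experiment 3 and the total RNA each carry their own, so code and experiment cannot be told apart. The 0 h library of experiment 1 has a different prefix from the other 6 libraries of that experiment and the negative extraction. All 7 fibroblast marker miRNAs were detected, with a summed level of 176815 to 257878 CPM at 0 h, whereas the embryonic stem cell markers with counts, 2 of 7, summed to at most 0.217 CPM. Epithelial markers summed to 362 to 1151 CPM at 0 h and to 217 to 501 CPM at 12 h. Muscle markers, 2 of 3 with counts, summed to 4.31 to 22.1 CPM at 0 h and to 1.77 to 9.47 CPM at 12 h, with miR-1a-3p at 0 counts. Blood, neural and liver markers summed to at most 6.71 CPM at either time. The part of these other cell types in the members' results was not tested.

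The Sfmbt2-type repeats were a minor group in these fibroblasts, with 76359 counts over the purified libraries. At 0 h they took 0.154%, 0.0702% and 0.121% of miRNA counts in experiments 1, 2 and 3. At 12 h their share was 0.0844%, 0.0353% and 0.0609%. Experiment 2 had the lowest share at both times, and in experiment 3 the lowest share, 0.0463%, came at 10 h and not at 12 h. In total RNA the share was 0.0775% (95% Wilson interval 0.0754 to 0.0797) without label and 0.110% (0.107 to 0.114) after the pulse. The negative extraction held 451 member counts, or 0.159% (0.145 to 0.174), against 0.154% in the highest purified library. All intervals given are for counting error alone, as reads without molecular identifiers are not independent molecules. In such bulk libraries, fewer cells with a miRNA and less of it per cell cannot be told apart.

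A few members carried most of these counts. The 3 most abundant, miR-669a-5p, miR-669c-5p and miR-466b-3p, held 43.9% of them, and the top 6 held 65.8%. A count was present in all 21 purified libraries for 19 of the 61 members.

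Summed by arm, the 3p arms were lower at 12 h than at 0 h in every experiment, and by more than the 5p arms. The summed 3p arms stood at 688, 241 and 542 CPM at 0 h in experiments 1, 2 and 3, and at 202, 75.0 and 190 CPM at 12 h. The 12 h level was therefore 29.3%, 31.2% and 35.1% of the 0 h level. The summed 5p arms stood at 829, 450 and 658 CPM at 0 h and at 633, 276 and 413 CPM at 12 h, which is 76.3%, 61.4% and 62.7%. Within every experiment the 3p arms kept a smaller percentage than the 5p arms. The 3p arms made up 44.7%, 34.3% and 44.7% of member counts at 0 h and 23.9%, 21.3% and 31.2% at 12 h, and these 2 sets of libraries did not overlap. In total RNA the 3p share was 30.9% (95% Wilson interval 29.6 to 32.2) without label and 34.9% (33.6 to 36.3) with it. The negative extraction, which had no 4SU, stood at 39.7% (35.3 to 44.3), within the range of the purified 0 h libraries.

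The 3p sums of miR-466, miR-669 and miR-467 were each lower at 12 h in all 3 experiments. The miR-466 3p arms, 10 names, summed to 336.98 ± 156 CPM at 0 h and 121 ± 50.5 at 12 h (SD, n = 3), and the 12 h level was 30.4%, 31.6% and 47.6% of the 0 h level in the 3 experiments. The miR-669 3p arms, 11 names dominated by miR-669a-3p, summed to 125 ± 88.7 and 23.2 ± 12.0 CPM, which gave 21.6%, 43.2% and 12.8%. The miR-467 3p arms were scarcer, at 23.2 ± 14.2 and 9.81 ± 7.24 CPM, which gave 62.5%, 15.2% and 40.5%. Levels at 0 h differed widely between experiments. Among the 5p arms, miR-669 summed to 407 ± 118 CPM at 0 h and 272 ± 107 at 12 h, miR-467 to 203 ± 87.9 and 144 ± 67.9, and miR-466 to 31.4 ± 3.58 and 21.0 ± 8.82. The 5p sums kept 78.8%, 60.8% and 57.9% for miR-669, 72.2%, 59.0% and 80.6% for miR-467, and 87.4%, 56.9% and 51.3% for miR-466. The 3p and 5p percentages lay closest for miR-466 in experiment 3 and for miR-467 in experiment 1. The miR-297 arms were near the floor, at 9.0 ± 2.9 CPM in all at 0 h. On these few counts the miR-297 3p arm kept 45.8%, 0% and 91.1%, and the 5p arms 35.3%, 711% and 11.4%.

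**Figure D2:**
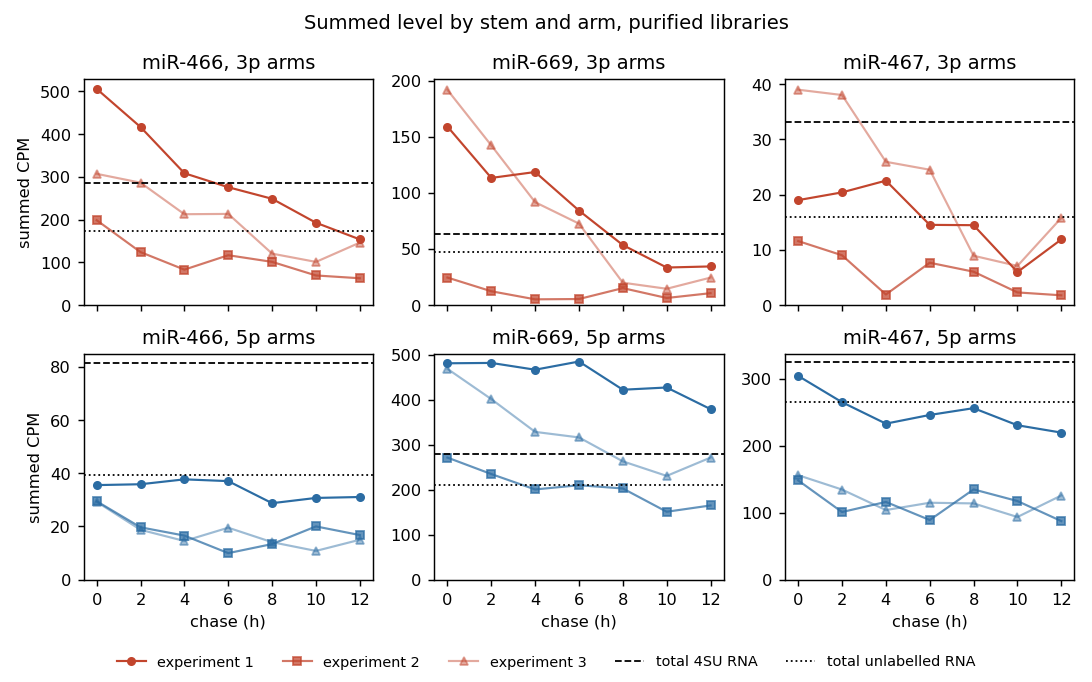
Summed CPM of the 3p (top, red) and 5p (bottom, blue) arms of miR-466, miR-669 and miR-467 against hours of chase, 1 line per experiment, with dashed and dotted lines for the single total RNA libraries. In experiment 3 the miR-669 3p arms keep 12.8% of their 0 h level at 12 h and the 5p arms 57.9%, and in experiment 2 they keep 43.2% and 60.8%. The 3p and 5p arms keep 62.5% and 72.2% for miR-467 in experiment 1, and 47.6% and 51.3% for miR-466 in experiment 3.

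The slope over the chase asked whether members gained or lost share of the purified pool with time. It is in log2 per hour, from edgeR's quasi-likelihood test on counts over all 21 purified libraries with TMM scaling. It is relative to the other miRNAs and is not a half-life. Of the 30 tested members, 6 fell and none rose at an adjusted p below 0.05 (Benjamini-Hochberg over all 414 miRNAs tested). Across all miRNAs 7.25% were called down and 5.07% up. With the experiment as a block, 14 members were called down, among them all 6, and none up, where 16.7% and 15.2% of all miRNAs were called. Slopes were below 0 for 27 of the 30 members and for 53.6% of all miRNAs, and their median was -0.06 against -0.0037 over all miRNAs.

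All calls were of 3p arms or miR-466g. Of the 11 tested 3p arms, 5 fell (miR-669a-3p, miR-466h-3p, miR-669f-3p, miR-466d-3p and miR-466b-3p), as did miR-466g, whose name has no arm. With the block, 9 of the 11 were called down. The 3p slopes ran from -0.22 to -0.06 with a median of -0.12. DESeq2 called 7 of them down and limma-voom 3. Of the 18 tested 5p arms, 0 were called by edgeR (1 at an unadjusted p below 0.05), 1 by DESeq2 and 0 by limma-voom, and 4 were called down by edgeR with the block. Their slopes ran from -0.09 to 0.05 with a median of -0.04. Over the other miRNAs in the table, 5.56% of 3p arms and 7.19% of 5p arms were called down, or 15.2% and 14.4% with the block. Of these, DESeq2 called down 15 of 198 3p arms and 16 of 167 5p arms, and limma-voom 8 and 13. At an unadjusted p below 0.05 by edgeR, 22 of these 3p arms and 19 of these 5p arms were lower. For both arms together, DESeq2 called 9 of the 30 members down and limma-voom 4, where 9.90% and 6.28% of all miRNAs were, and 11 members were lower at an unadjusted p below 0.05, where 12.8% were. The calls rested on particular libraries: without experiment 3 or without the 0 h libraries 0 members were called, and without experiment 1 there was 1. When experiment 1 lacked its 0 h library, whose code has the different prefix, 3 were called. With the block, all 6 were kept when any 1 experiment was left out (12, 16 and 9 members called without experiments 1, 2 and 3) and when the 0 h libraries were left out (12 called). The shares of all miRNAs called in these left-out runs are not given here.

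**Figure D3:**
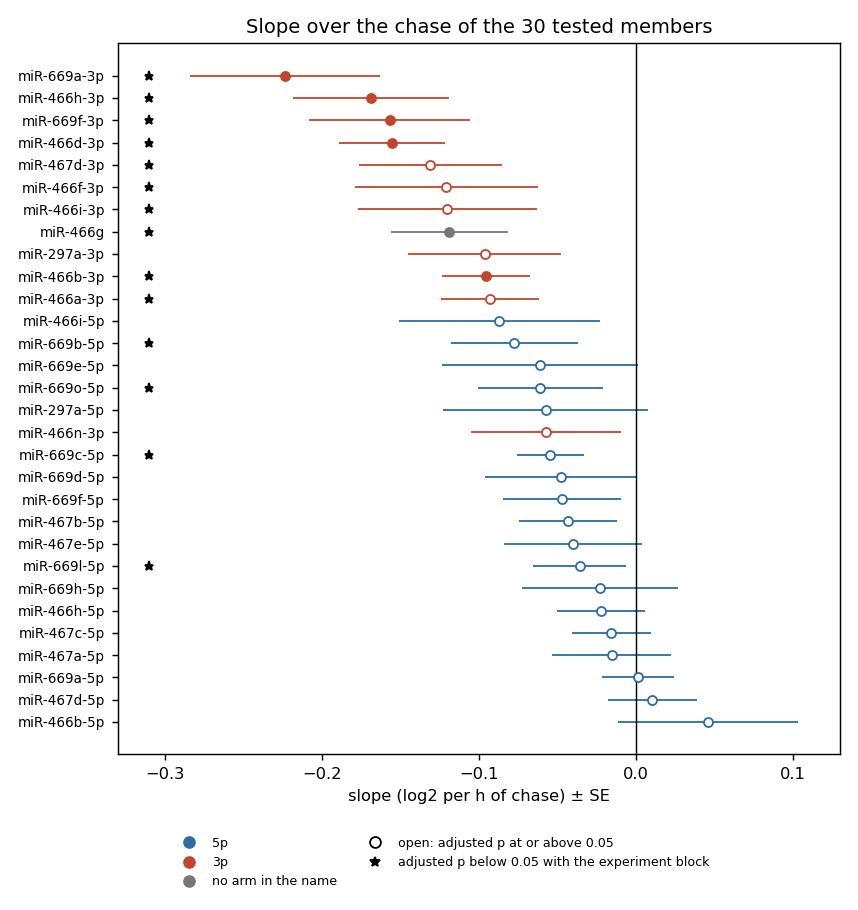
Slope in log2 per hour of chase (x axis, ± SE) of the 30 tested members, ordered by slope, in red for 3p arms, blue for 5p arms and grey for miR-466g. Filled points passed the test without a block and stars mark the 14 that passed with the experiment as a block; the 5 filled red points lie between -0.22 and -0.10, and the 5p points lie between -0.09 and 0.05.

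miR-669a-3p, whose name matches 12 miR-669a genes, had the lowest slope. In experiment 1 its level was 142, 102, 107, 71.6, 46.9, 28.6 and 27.7 CPM from 0 to 12 h. In experiment 3 it was 181, 135, 85.5, 66.1, 16.8, 13.2 and 21.7 CPM. Experiment 2 stood apart, at 18.9, 9.43, 3.19, 4.60, 14.2, 5.72 and 6.18 CPM: its 0 h library lay below the 12 h libraries of experiments 1 and 3, so the 0 h and 12 h groups overlapped. The slope was -0.22 (SE 0.0606, adjusted p = 0.0183 by edgeR), and -0.22 with the block (adjusted p = 2.54e-07 by edgeR).

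Its partner arm miR-669a-5p, the most abundant member, had a slope smaller than its error. In experiment 1 it was at 193, 193, 189, 190, 175, 191 and 183 CPM from 0 to 12 h. Experiment 2 gave 117, 72.2, 77.7, 91.2, 79.4, 85.2 and 78.5 CPM, and experiment 3 gave 133.7, 128, 111, 114, 99.3, 92.8 and 115 CPM. Each experiment kept its own level, with experiment 1 above the others at every time, and the 0 h and 12 h groups overlapped. Its slope was 0.0010 (SE 0.0230, adjusted p = 0.984 by edgeR), and its sign changed under several of the alternatives.

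miR-669c-5p, the second most abundant member, has a single gene copy. Its level in experiment 1 was 162, 172, 160, 172, 132, 133.8 and 114 CPM. In experiment 2 it was 97.0, 130, 83.5, 74.4, 76.8, 46.3 and 58.2 CPM, and in experiment 3 it was 213, 166, 142, 132, 103, 97.5 and 105 CPM. All experiments were lower at 12 h than at 0 h, but the 0 h value of experiment 2 lay below the 12 h values of the others. The slope of -0.05 (SE 0.0213) did not pass without a block (adjusted p = 0.0907 by edgeR) and did with it (adjusted p = 0.000319).

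miR-466b-3p was the most abundant 3p arm. It stood at 288, 235, 162, 150, 138, 120 and 85.6 CPM in experiment 1 from 0 to 12 h. In experiment 2 it was at 114, 75.9, 48.4, 72.1, 56.5, 47.5 and 39.7 CPM, and in experiment 3 at 133.7, 124, 98.3, 97.7, 61.5, 54.3 and 77.0 CPM. Every 0 h library was above every 12 h library. The slope was -0.10 (SE 0.0279, adjusted p = 0.0283 by edgeR). Its relative miR-466a-3p, at 72.2 ± 32.2 CPM at 0 h and 28.8 ± 12.2 at 12 h (SD, n = 3), had a slope of -0.09 with an adjusted p of 0.0501 by edgeR, and 2.05e-05 with the block.

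miR-466d-3p had the lowest adjusted p of the members. In experiment 1 it was at 53.7, 40.4, 33.3, 25.5, 21.2, 13.1 and 16.2 CPM. In experiment 2 it was at 26.8, 11.1, 5.73, 8.43, 9.49, 5.72 and 2.65 CPM, the last being 3 counts, and in experiment 3 at 31.6, 29.5, 22.5, 23.0, 12.0, 9.11 and 6.32 CPM. The 0 h and 12 h libraries did not overlap. The slope was -0.16 (SE 0.0337, adjusted p = 0.00391 by edgeR).

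miR-466h-3p followed miR-669a-3p in having a low level in experiment 2. It was at 34.0, 37.9, 28.9, 20.2, 14.7, 6.53 and 7.92 CPM in experiment 1. Experiment 2 gave 7.95, 6.97, 6.37, 9.20, 3.02, 1.14 and 5.30 CPM, and experiment 3 gave 48.1, 45.9, 38.4, 32.8, 13.7, 9.79 and 14.6 CPM. In each experiment the values from 8 h onward lay below the value at 6 h, and the low 0 h value of experiment 2 made the 0 h and 12 h groups overlap. The slope was -0.17 (SE 0.0496, adjusted p = 0.0283 by edgeR). Its 5p partner miR-466h-5p was at 21.6 ± 3.28 CPM at 0 h and 15.1 ± 7.07 at 12 h (SD, n = 3), with a slope of -0.02 (adjusted p = 0.693 by edgeR).

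The remaining called members were scarce. miR-466g was at 16.7, 11.9, 5.91, 7.16, 5.13, 3.26 and 6.40 CPM in experiment 1. It was at 8.61, 4.10, 2.55, 0.767, 2.16, 1.14 and 0.883 CPM in experiment 2 and at 7.59, 9.47, 10.0, 5.75, 4.81, 3.71 and 5.13 CPM in experiment 3, with a slope of -0.12 (SE 0.0371, adjusted p = 0.036 by edgeR). Its 0 h libraries lay above its 12 h libraries throughout. miR-669f-3p was at 11.9, 3.97 and 5.20 CPM at 0 h in experiments 1, 2 and 3. At 12 h it was at 3.66 CPM, 0 and 1.18 CPM, where the 0 allows up to 2.65 CPM. The slope was -0.16 (SE 0.0512, adjusted p = 0.045 by edgeR), and leaving out each of 16 of the 21 libraries in turn ended the call, as did each of 11 for miR-466g, at adjusted p up to 0.172 and 0.137.

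Leaving out any single library kept the call of miR-466d-3p. miR-669a-3p lost its call only when experiment 3 lacked its 0 h library (adjusted p = 0.0544 by edgeR). miR-466b-3p lost it when experiment 1 lacked its 0 h library and when experiment 2 lacked its 10 h or its 12 h library, at adjusted p up to 0.112 by edgeR. miR-466h-3p lost it when 10 h was missing from experiment 1, 12 h from experiment 2, and 0 h or 2 h from experiment 3, at adjusted p up to 0.0721 by edgeR. Limma-voom did not call miR-669a-3p (adjusted p = 0.105) or miR-466h-3p (adjusted p = 0.0588), and without a filter on low counts edgeR did not call miR-669f-3p (adjusted p = 0.0928) or miR-466g (adjusted p = 0.0752).

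The other tested members named by abundance did not pass without a block. miR-467c-5p, the leading miR-467 product, was at 95.7 ± 52.7 CPM at 0 h and 67.1 ± 27.5 at 12 h (SD, n = 3), with a slope of -0.02 (adjusted p = 0.775 by edgeR). For the hairpin of miR-467d, the 5p arm was at 54.9 ± 15.4 and 44.4 ± 22.0 CPM with a slope of 0.01, and the 3p arm at 20.2 ± 13.6 and 8.49 ± 5.94 CPM with a slope of -0.13. The 3p arm missed the threshold (adjusted p = 0.0591 by edgeR) and passed with the block (adjusted p = 0.000303). miR-466b-5p, at 1.60 ± 1.12 and 1.82 ± 2.20 CPM, had the highest slope of the members, 0.05 (SE 0.0572, adjusted p = 0.693 by edgeR). The miR-297a arms, at 3.13 ± 3.10 CPM for 5p and 4.95 ± 1.22 for 3p at 0 h, sloped at -0.06 and -0.10 and passed neither with nor without the block.

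Members called only with the block were miR-466a-3p, miR-467d-3p, miR-466i-3p and miR-466f-3p among the 3p arms, and miR-669b-5p, miR-669c-5p, miR-669l-5p and miR-669o-5p among the 5p arms. The AC-repeat miR-466i-3p had a slope of -0.12 (adjusted p = 0.187 by edgeR without the block and 0.00957 with it). miR-466f-3p had the same slope to 2 decimals (adjusted p = 0.201 and 0.0418 by edgeR). The 4 called 5p arms all belong to the miR-669 stem, with slopes of -0.08 for miR-669b-5p, -0.06 for miR-669o-5p, -0.05 for miR-669c-5p and -0.04 for miR-669l-5p. Each of these was shallower than the slope of any called 3p arm.

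Hairpins with both arms tested allowed the arms to be compared within a library, where library scaling largely cancels. There were 7 of them. The arms were paired by name, so for miR-669a, miR-466b and miR-297a, which have several gene copies, a ratio pools the copies. Reads shared between near-identical names may also enter a ratio. The slope of log2 of the 3p over the 5p arm (CPM plus 1) was given a two-sided permutation test, with 100000 permutations of the times inside each experiment, and adjusted over all 102 hairpins in the table with both arms tested. This test was added after the values were seen. The ratio fell in 4 of the 7 hairpins and rose in 0, where 13.7% of all 102 fell and 11.8% rose. The slope was below 0 per hour in all 7 and in 48 of the 95 other hairpins. Their median slopes were -0.12 and -0.0034. The ratio follows the arm names and not abundance. In total RNA the 5p arm was the more abundant for miR-297a, miR-466h, miR-467d, miR-669a and miR-669f. The other hairpins, of which 10 fell and 12 rose, were not sorted by their more abundant arm. Whether the members differ from other hairpins with a scarcer 3p arm was therefore not tested.

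For miR-669a the ratio went from -0.44, -2.57 and 0.43 in log2 at 0 h to -2.68, -3.47 and -2.35 at 12 h in experiments 1, 2 and 3. The slope was -0.18 per hour (SE 0.0370, adjusted permutation p = 0.00262). At 0 h the arms were thus near parity in experiments 1 and 3, and at 12 h the 5p arm led in every experiment. This lead was larger than in total 4SU RNA, where the ratio was -1.35. In the negative extraction, a single library without 4SU, the ratio was -2.77, within the range of the 12 h libraries. For miR-466b, in which the 3p arm is the abundant one, the ratio went from 6.23, 6.11 and 5.87 to 4.04, 5.35 and 5.16, with a slope of -0.12 (SE 0.0283, adjusted permutation p = 0.00541). Both purified sets lay above the total 4SU RNA value of 3.52, and the scarce 5p arm, at 1.60 ± 1.12 CPM at 0 h (SD, n = 3) and with 0 counts at 12 h in experiment 2, was near the 1 CPM added, which limits the size of this ratio.

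For miR-467d the slope was -0.14 (SE 0.0350, adjusted permutation p = 0.00845), with the ratio lower at 12 h in 3 of 3 experiments. The slope for miR-466h was -0.12 (SE 0.0372, adjusted permutation p = 0.019), with the ratio lower at 12 h in experiments 1 and 3 and higher in experiment 2, from -1.45 to -1.09. miR-669f (-0.06, adjusted permutation p = 0.161), miR-297a (-0.06, 0.424) and miR-466i (-0.06, 0.429) did not pass. These calls rested on particular experiments: without experiment 1, 0 of the 7 passed and 6 of all 102 fell, without experiment 3 only miR-466b passed and 6 of 102 fell, and without experiment 2 the same 4 passed. Without the 0 h libraries miR-466b did not pass (adjusted permutation p = 0.0599). In the negative extraction the log2 ratio was -2.64 for miR-467d, -2.92 for miR-466h and 5.58 for miR-466b, on few counts of the scarcer arm. What part such background has in the arm ratios was not tested.

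**Figure D4:**
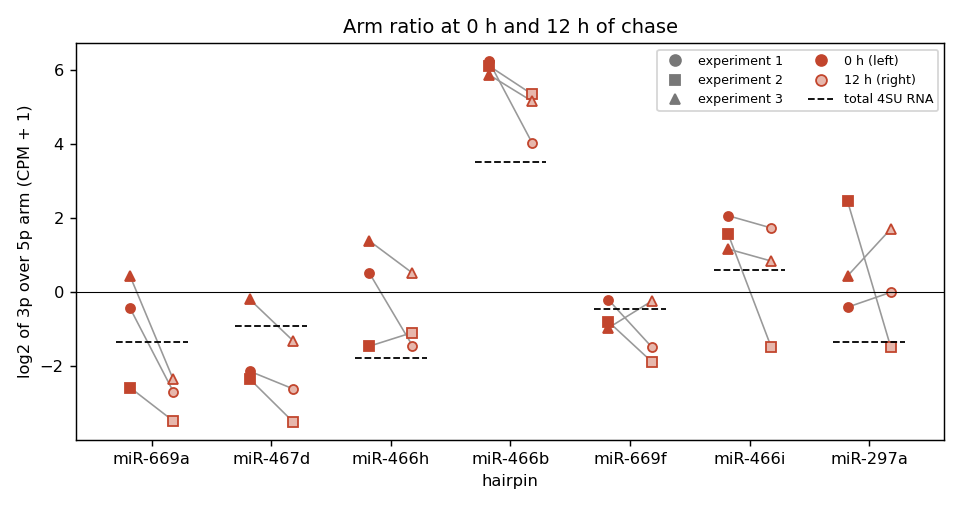
Log2 ratio of the 3p to the 5p arm (CPM + 1) of 7 hairpins at 0 h (left, dark) and 12 h (right, pale) of chase, with a symbol for each experiment joined by a line and a dashed bar for total 4SU RNA. The miR-669a ratio is lower at 12 h in all 3 experiments, and the miR-466b ratio lies above 4 in every purified library shown.

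The comparison of the last time with the first asked the same question of the end points only. Members called at 12 h against 0 h numbered 0 by edgeR, where 0.725% of all miRNAs were called down and 0.483% up. At an unadjusted p below 0.05 there were 3 members, all lower, where 7.49% of all miRNAs were lower. DESeq2 called 1 member down (miR-466d-3p) and limma-voom 0, where 2.17% and 0.725% of all miRNAs were. The lowest adjusted p of a member by edgeR was 0.151. With the block, 8 members were called down (miR-669a-3p, miR-466d-3p, miR-669f-3p, miR-466h-3p, miR-466g, miR-466b-3p, miR-466a-3p and miR-669c-5p) and 0 up, where 12.1% and 9.66% of all miRNAs were. In these fits the difference was -2.33 in log2 (SE 1.06) for miR-669a-3p and -1.84 (SE 0.59) for miR-466d-3p, without the block. In CPM, 22 of the 30 tested members were lower at 12 h in all 3 experiments, as were 41.1% of all miRNAs. The 0 h and 12 h libraries did not overlap, with 12 h lower, for 6 of the 30 and for 15.7% of all miRNAs.

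At 2 h against 0 h, 0 members were called by edgeR with or without the block, and 0 by DESeq2 and limma-voom. The share called down among all miRNAs was 0% without the block and 3.14% with it, and 0.242% were called up with it. No member had an unadjusted p below 0.05 by edgeR without the block. The median difference of the members was -0.24 in log2, against -0.01 over all miRNAs.

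The table also separates each mature miRNA into isoforms, of which the canonical form, trimmed forms, forms extended by templated bases and forms with non-templated 3′ bases held most counts; the meaning is read from the entry names. Templated 3′ extension made up 40.3 ± 11.6% of the 3p members' counts at 0 h and 48.4 ± 10.2% at 12 h (SD, n = 3), against 14.7 ± 1.86% and 16.6 ± 3.76% for all miRNAs. The canonical form made up 23.1 ± 2.77% of 3p member counts at 0 h and 28.1 ± 2.72% at 12 h. For the 5p members the canonical form held 41.1 ± 5.37% and 40.1 ± 3.91%, and trimmed forms held 32.9 ± 6.28% and 37.6 ± 5.93%. Non-templated 3′ bases were on 3.65 ± 0.686% of 5p and 9.92 ± 3.95% of 3p member counts at 0 h, against 12.9 ± 0.808% for all miRNAs. These shares were not tested.

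Single members had distinct isoform profiles. miR-466h-3p was 92.7 ± 3.24% extended at 0 h and miR-466b-3p 62.2 ± 11.5%, while miR-467d-5p was 89.4 ± 2.66% trimmed and miR-467c-5p 82.8 ± 1.12% canonical (SD, n = 3). Both arms of miR-669a were mainly trimmed, at 75.2 ± 8.32% for 3p and 64.5 ± 5.94% for 5p. The trimmed share of the 3p arm was 50.2% in total 4SU RNA and 45.6% in total unlabelled RNA, both below the purified 0 h mean. That of the 5p arm was 49.1% and 63.4%, the latter near the purified 0 h mean. In the negative extraction, a single shallow library without 4SU, the trimmed share was 77.8% for the 3p arm and 69.8% for the 5p arm. Both lay within the SD of the purified 0 h means, and the 3p share rested on few counts. miR-466d-3p carried non-templated 3′ bases on 35.8 ± 11.8% of its counts at 0 h, and uridine made up 74.2 ± 14.6% of those additions.

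When the slope was fitted to isoform entries, 11 of 52 tested member entries fell and none rose, by edgeR with adjustment over 983 entries, of which 6.51% were called down. With the block 25 member entries were called down, where 15.6% of all entries were. Of the 20 tested entries of 3p arms, 9 fell, namely 3 canonical, 3 trimmed, 2 extended and 1 with non-templated bases. Of the 30 tested entries of 5p arms, 0 fell without the block and 5 with it. The entries of miR-466g, canonical and trimmed, both fell.

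The control libraries give the members' levels without capture or without label. Each is a single library, so there is no test. After the pulse, total RNA had a higher level than total unlabelled RNA for 29 of the 30 tested members. Their median log2 ratio was 0.53 (CPM plus 1), against 0.31 over all miRNAs. The share of all miRNAs with a higher level was not computed, and their median was also positive. At least 2-fold higher were 3 of the 30, where 10.1% of all miRNAs were, and at least 2-fold lower were 0, where 5.56% were. Purified 0 h RNA against total 4SU RNA had a median of -0.01 for the members and 0.03 for all miRNAs. By arm the medians were -0.29 for 5p and 0.32 for 3p. At least 2-fold higher in purified 0 h RNA were 3 of 30 members, where 16.4% of all miRNAs were, and at least 2-fold lower were 5, where 21.7% were. At 12 h the median against total 4SU RNA was -0.98 for the members and -0.37 for all miRNAs, and 15 of 30 were at least 2-fold lower, where 29.2% of all miRNAs were.

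Among members with enough counts to rank, miR-669c-5p stood highest in purified 0 h over total 4SU RNA, at 1.69 in log2. It was at 158 ± 58.3 CPM at 0 h (SD, n = 3) and 48.2 CPM in total 4SU RNA, and the ratio was above 0 in each experiment, at 1.73, 1.00 and 2.12. miR-466h-3p (1.39) and miR-669a-3p (1.08) came next, but in experiment 2 their ratios were -0.40 and -1.45. The lowest were miR-466b-5p (-2.26), miR-467a-5p (-2.02) and miR-297a-5p (-1.62). miR-467a-5p, with 10 gene copies, was at 24.9 ± 11.4 CPM at 0 h and 104 CPM in total 4SU RNA, and its ratio was -1.47, -2.08 and -2.80 in the 3 experiments.

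The negative extraction, which captured RNA from cells that had no 4SU, held several members at levels above those in total RNA. miR-466b-3p had 109 counts there, or 384 CPM (95% Poisson interval 315 to 463), against 92.5 CPM in total unlabelled RNA and 143 CPM in total 4SU RNA. miR-669a-5p was at 222 CPM (171 to 284) and miR-669c-5p at 173 CPM (128 to 228), against 105 and 43.7 CPM in total unlabelled RNA. miR-669a-3p was at 31.7 CPM (14.5 to 60.2) against 37.6 CPM. Against total unlabelled RNA, 13 of 30 members were at least 2-fold higher, where 18.8% of all miRNAs were. At least 2-fold lower were 5 members, and the share over all miRNAs was not computed. The median log2 ratio was 0.28 for the members and -0.39 over all miRNAs. By arm, 10 of 18 5p arms and 3 of 11 3p arms were at least 2-fold higher. The shares among the other miRNAs of the same arm were not computed. The medians of the member 5p and 3p arms were 1.06 and 0.25, against -0.48 and -0.46 for the other miRNAs of the same arm. No count was found there for 4 tested members, miR-297a-3p, miR-466g, miR-466i-5p and miR-669f-3p, for which the limit used here for a count of 0, 3 counts, stands for 10.6 CPM. Total unlabelled RNA held each of these 4 below that limit. What part such background has in the purified levels was not tested.

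**Figure D5:**
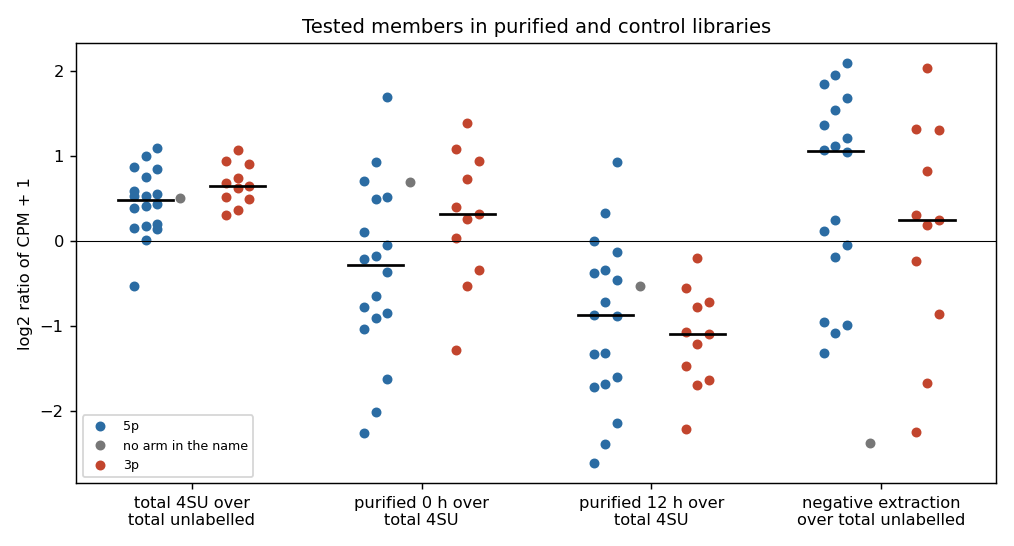
Log2 ratios of CPM + 1 for the 30 tested members in 4 comparisons of libraries, with 5p arms in blue, 3p arms in red, miR-466g in grey, and the median of each arm as a black bar. Medians for purified 0 h over total 4SU RNA are -0.29 (5p) and 0.32 (3p), and at 12 h they are -0.87 and -1.09.

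2 other lists give the setting. Of 52 names of Dlk1-Dio3, another imprinted cluster of tandem miRNA genes, 4 were tested and 0 were called by edgeR with or without the block, 0 at an unadjusted p below 0.05, and 0 by DESeq2 and limma-voom. Of 11 let-7 guide arms, which together held 22.6% of the purified counts, 0 were called by edgeR, DESeq2 or limma-voom and 1 had an unadjusted p below 0.05 by edgeR, while with the block 1 was down and 1 up. Their median slopes were -0.02 and -0.0035, against -0.06 for the members.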

How the data were processed

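The authors deposited read counts, whole numbers per isoform class of each mature miRNA, with a column for each of 24 small RNA libraries. The submitters' processing notes name CASAVA 1.8.0. Not given in the sources used here are the aligner, miRNA annotation, rule for reads with several matches and class definitions. After removal of 1 repeated row, 8 of 20 classes were summed per mature name, because the others repeat them (25728 of 25728 cells equal).

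Tests used edgeR 4.0.16 (R 4.3.3), quasi-likelihood, with TMM factors, filterByExpr and Benjamini-Hochberg adjustment at 0.05. The fits without the block were run on simulated counts that had no experiment effect. The fits with the block were not checked in this way. Alternatives used DESeq2 1.42.0, limma-voom 3.58.1, other scalings and left-out libraries. CPM used library totals, and control ratios a pseudocount of 1 CPM. Experiment numbers pair the libraries: deviations from time-point means correlated at 0.311 to 0.738 in 63 same-experiment pairs. They correlated at -0.647 to 0.227 in 126 pairs that differed in both experiment and time. Deviations at each time cancel out over the experiments, which by itself lowers the values of these 126 pairs.

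Members and lists were chosen with earlier results of these data known. Genes named are those called, the 2 most abundant per stem and arm, the 4 lowest slopes with the block, and the 3 highest and 3 lowest ratios of purified 0 h to total 4SU RNA at 50 counts or more. miR-466h-5p and the members called only with the block, and the arm ratio test, were added after values were seen.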

Additional observations from a re-analysis of the deposited data

How the results depend on the processing

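The number of members with a slope past the threshold was 6, all down, and every call in every alternative run was down. With the replicate block it was 14, where 16.7% of all miRNAs were called down. It was 12 with the block and without the 0 h libraries, 17 with the block and library totals only, 12 with the block and upper-quartile factors, and 12, 16 and 9 with the block and without experiment 1, 2 or 3. Alternatives with the block other than the first were chosen after seeing the data, and all 6 members were kept in each. Without the block, 0 were called without the 0 h libraries, 2 without the 12 h libraries, and 0 to 11 when an experiment was left out (1, 11 and 0 without experiments 1, 2 and 3). Leaving out single libraries gave 2 to 7. Only 2 remained when experiment 2 lost its 12 h library. There were 3 when experiment 1 lost its 0 h or its 10 h library, when experiment 2 lost its 10 h library, and when experiment 3 lost its 0 h or its 2 h library. The cause was not tested. DESeq2 gave 9, limma-voom 4, library totals only 9, no filter 4, the canonical class only 4 and thinning to equal depth 5, where 9.90%, 6.28%, 11.4%, 2.21%, 9.38% and 7.43% of all miRNAs tested were called down. Library totals only moved the median slope of all miRNAs to -0.02. For left-out libraries or experiments and for the further runs with the block, the shares over all miRNAs are not given here. The counts of those runs therefore cannot be read as particular to the members.

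For 12 h against 0 h, 0 members became 8 with the replicate block, 1 with DESeq2, 2 with no filter on low counts and 1 without experiment 2 (0 to 1 over the experiments). At 2 h the count was 0 in every alternative run. For isoform entries, 11 became 25 with the block, where 6.51% and 15.6% of all entries were called down. When an experiment was left out it was 0 to 24 (1, 24 and 0). The shares over all miRNAs or entries are not given here for no filter or left-out experiments. The number of hairpins with a lower arm ratio, 4 of 7, was 0, 4 and 1 without experiments 1, 2 and 3, where 6, 13 and 6 of all 102 fell.

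Slopes near 0 changed sign. The slope of miR-669a-5p was -0.0015 with the replicate block, -0.018 with library totals only, -0.00078 with DESeq2, -0.0019 with limma-voom, -0.0052 with no filter, -0.014 with the canonical class only, -0.0050 without the 12 h libraries and -0.013 when thinned. It ran from -0.015 to 0.012 when a library or an experiment was left out. The slope of miR-467d-5p was -0.0080 with library totals only and -0.0024 when thinned, and ran from -0.0053 to 0.027 with a library or an experiment left out. In the same way that of miR-467c-5p ran from -0.030 to 0.0077, that of miR-467a-5p from -0.038 to 0.000041, and the arm ratio slope of miR-297a from -0.10 to 0.021. Without the 0 h libraries the slopes of miR-466h-5p and miR-467c-5p were 0.0014 and 0.0037, and without the 12 h libraries that of miR-467a-5p was 0.0031.

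A level of 3 counts limits what can be seen to 2.65 CPM in the shallowest purified library and 10.6 CPM in the negative extraction.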
